A study of Mus musculus with 5 samples.

Results

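The 10 genes described here belong to the Wnt pathway and were taken by name from the 29818 genes counted in growth plate cells of 5 mouse pups. They are 4 ligands (Wnt4, Wnt5a, Wnt5b and Wnt11), 4 receptors or receptor partners (Ror2, Fzd8, Fzd9 and Lgr6) and 2 response genes (Lef1 and Axin2). The files of all 5 pups listed all 10 genes. Over all cells they had between 3978 UMIs (Axin2) and 25792 UMIs (Wnt5b), where a UMI (unique molecular identifier) marks 1 captured RNA molecule.

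Wnt proteins are secreted, lipid-modified ligands that bind Frizzled receptors on nearby cells. In the canonical branch, β-catenin is stabilised and acts with TCF/LEF factors such as LEF1 on genes that include Axin2, whose product feeds back to promote the breakdown of β-catenin. WNT5A, WNT5B and WNT11 are known mainly for signaling without β-catenin, and ROR2 is a receptor for WNT5A. LGR6 is a receptor for R-spondins, which raise the amount of Frizzled at the cell surface. In the growth plate, resting chondrocytes give rise to columns of dividing cells, which become prehypertrophic and express Ihh, and then hypertrophic and express Col10a1. Wnt signals are known to act on several of these steps.

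The cells came from knee cartilage (distal femur and proximal tibia) of littermates whose strain is labelled C57BL/6J, and the cells of each pup made up 1 BD Rhapsody library. Pups 1 and 2 are labelled wild type (WT), and pups 3, 4 and 5 are labelled Mutant. In the study the mutant genotype is heterozygosity for a conditional Trpv4 p.R594H knock-in, recombined by Cre under the Col2a1 promoter, from the line B6;SJL-Tg(Col2a1-cre)1Bhr/J, made on a B6SJLF1 background and later crossed to C57BL/6J. TRPV4 is a calcium-permeable channel, and the study asked which genes differ when its activated form is made in chondrocytes. Because this promoter is active in chondrocytes, cells of other lineages need not carry the recombined allele, and the counts do not tell the alleles apart. For its body measurements of older mice the study counted mice with neither allele, with Cre alone or with the knock-in alone as controls. Which of these the 2 WT pups were is not given in the sources used here. The sample labels put the pups at postnatal day 5 and the series design at day 3. After the filters, 82516 of 84382 cells were kept.

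Depth and sex differed with the label. Median UMIs per cell were 9261 and 8521 for the WT pups and 6657, 6000 and 7016 for the Mutant pups. Xist, the RNA of the inactive X chromosome, was detected in 0.119% and 0.109% of cells from WT pups 1 and 2, in 89.8% and 88.4% from Mutant pups 3 and 4, and in 0.174% from Mutant pup 5. The parts of depth and sex in the differences by label were not tested. Only Mutant pups 3 and 4 had Xist in most cells. A fit with an Xist term, given below, therefore sets Mutant pup 5 alone against the WT pups. Trpv4 itself, over all cells and after TMM scaling, was at 160 and 94.1 CPM in the WT pups and at 88.3, 161 and 179 CPM in the Mutant pups. These ranges overlapped, and since reads of both alleles are counted together, they do not check the labels.

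Clustering gave 46 clusters, and 44 of them, with 77200 cells, were named from marker genes. The 10 genes and the other genes of the Wnt list were left out of the features used for clustering. Most cells held the cartilage RNA that the tissue label calls for: a UMI of Col2a1 was found in 97.7% to 99.8% of the cells of each pup and one of Acan in 87.3% to 95.8%, while Ptprc, a marker of blood cells, was found in 1.04% to 3.92%. Macrophages held 10030 ± 2732 CPM of Col2a1 (SD, n = 5 pups) against 100320 ± 9998 CPM in resting chondrocytes, so that cartilage RNA was also counted in cells of another type. For this reason the macrophage level of each Wnt gene is given as a background. It is not an upper limit. Col2a1 was at 18202 ± 7214 CPM in granulocytes and at 38195 ± 13056 CPM in erythroid cells. Erythroid cells held 12.1 CPM of Wnt5a, 20.9 CPM of Wnt5b, 23.3 CPM of Fzd8 and 20.3 CPM of Lgr6. The classes hold unlike cells in places: Prg4 led 1 of the 10 resting clusters, cell cycle genes led another (cluster 15, 2325 cells, 875 CPM of Mki67), heat shock genes led 1 of the 2 perichondrial clusters, and 1 of the 2 hypertrophic clusters, cluster 42 with 76 of the 646 cells, was led by Mmp9, Mmp13 and Spp1. In cluster 42 Ihh had no UMI, and Col10a1 was at 284 CPM against 18932 CPM in cluster 28, the other hypertrophic cluster. The prehypertrophic class is 1 cluster, cluster 22 with 1260 cells, which was led by Il17b, Panx3 and Car12 and by cell cycle genes. It held 12.5 CPM of Ihh and 484 CPM of Mki67, a gene of dividing cells, while unnamed cluster 7 held 82.0 CPM of Ihh and 11.5 CPM of Mki67. The class is therefore to be read as cells with Panx3 and cell cycle genes and little Ihh. No cluster was named proliferating. Of the 2 unnamed clusters, cluster 7 (3634 cells) was led by Panx3, Smpd3 and Car12 and cluster 21 (1682 cells) by Ostn, Alpl and Mmp13. Any 2 pups shared between 3 and 7 cell barcodes.

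Promoters are shown for 3 genes: Wnt5b and Wnt11, which like Wnt4 were highest in hypertrophic chondrocytes, and Axin2, a target of TCF/LEF factors. Each stretch is the 100 bases before a RefSeq transcription start on GRCm38.p6, written 5′ to 3′ on the strand of the gene. Capitals mark a TCF/LEF motif, searched as ATCAAAG or as the related form TTCAAAG, and on the opposite strand as CTTTGAT or as the related form CTTTGAA.

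Wnt5b, upstream start, chr6:119544348-119544447, minus strand: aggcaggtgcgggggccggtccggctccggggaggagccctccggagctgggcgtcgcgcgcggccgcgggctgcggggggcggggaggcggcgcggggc
Wnt5b, downstream start, chr6:119449387-119449486, minus strand: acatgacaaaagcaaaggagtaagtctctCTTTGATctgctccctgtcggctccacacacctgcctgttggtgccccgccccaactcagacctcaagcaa
Wnt11, upstream start, chr7:98835012-98835111, plus strand: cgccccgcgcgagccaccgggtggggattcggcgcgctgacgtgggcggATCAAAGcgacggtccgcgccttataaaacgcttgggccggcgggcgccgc
Axin2, chr11:108920249-108920348, plus strand: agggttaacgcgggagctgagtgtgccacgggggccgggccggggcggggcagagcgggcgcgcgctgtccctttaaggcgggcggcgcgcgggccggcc

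RefSeq gives 3 starts for Wnt5b and 2 for Wnt11. Wnt5b had 87.0% G and C and 17 CpG dinucleotides before the upstream start, 54.0% and 2 before the downstream start, and 49.0% and 0 before the middle start, which is not printed. The other Wnt11 start, also not printed, had 66.0% and 7. The median over all 32851 RefSeq windows was 55% and 3. The motif began 71 bases before the downstream Wnt5b start and 51 bases before the upstream Wnt11 start. It was not in the stretches before the other starts of these 3 genes. Over the 8 genes searched it was in 2 of 14 windows of 300 bases, against 8.65% of all windows. These 2 are the windows of the marked Wnt5b and Wnt11 stretches, so the ligands printed are the genes with a match. Wnt4, also highest in hypertrophic chondrocytes, had no match. Its stretch overlaps an exon and is not printed. The motif was in 2.61% of all stretches of 100 bases. A match is a description of the letters, and no match says nothing about the factor. Wnt5a had no entry, and no window of Fzd8, on chromosome 18, was searched.

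All 10 genes are protein-coding. In GENCODE M21 on GRCm38 the ligands lie at chr4:137277489-137299726 (Wnt4), chr14:28504750-28527448 (Wnt5a), chr6:119432531-119544347 (Wnt5b) and chr7:98835112-98855195 (Wnt11). The receptors lie at chr13:53109312-53286124 (Ror2), chr18:9212163-9218136 (Fzd8), chr5:135248938-135251230 (Fzd9) and chr1:134983301-135105276 (Lgr6), and the response genes at chr3:131110471-131224356 (Lef1) and chr11:108920349-108950783 (Axin2).

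Levels are given as CPM, the UMIs of a gene per 1000000 UMIs of all cells of a class in a pup, as a mean ± SD over the 5 pups. The 13 classes with at least 20 cells in every pup are compared by how many pups were higher, with no test, since all genes of a cell bear on its class. CPM are not adjusted for differences in capture between genes, so they are compared between classes and not between genes, except where the genes of the pathway list were picked by CPM.

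**Figure D1:**
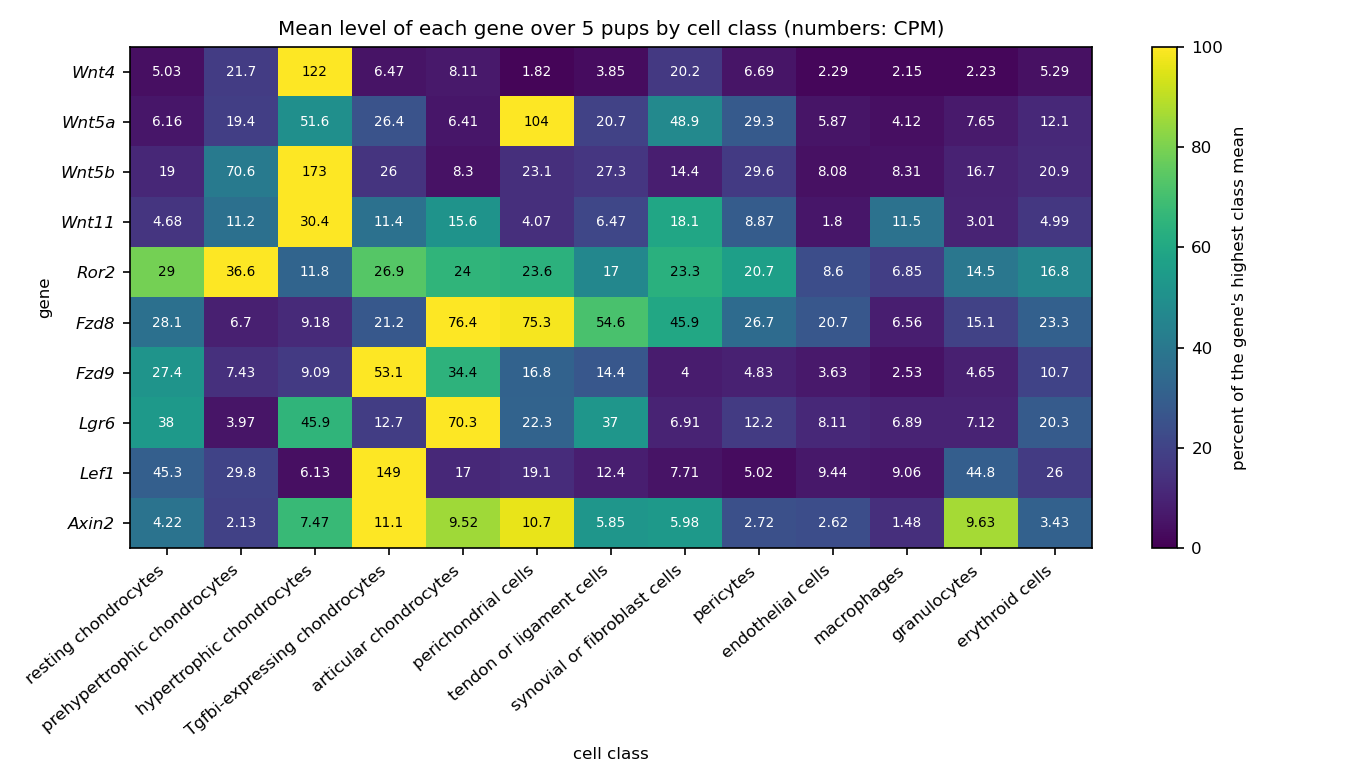
Mean CPM over 5 pups of each gene (rows) in each of 13 cell classes (columns), with colour giving the percent of that gene's highest class mean. Wnt4, Wnt5b and Wnt11 were highest in hypertrophic chondrocytes (122, 173 and 30.4 CPM), Wnt5a in perichondrial cells (104 CPM), and Fzd9, Lef1 and Axin2 in Tgfbi-expressing chondrocytes (53.1, 149 and 11.1 CPM).

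The ligands Wnt4, Wnt5b and Wnt11 were highest at the hypertrophic end of the growth plate. Wnt4, a ligand also known from kidney and gonad development, was at 109 and 161 CPM in the hypertrophic chondrocytes of the WT pups and at 116, 107 and 117 CPM in those of the Mutant pups. All 5 pups lay above every pup's value in the next class, prehypertrophic chondrocytes, at 21.7 ± 9.72 CPM. Synovial or fibroblast cells followed at 20.2 ± 4.55 CPM and did not separate from prehypertrophic chondrocytes. The lowest class mean was 1.82 ± 0.716 CPM in perichondrial cells, and macrophages were at 2.15 ± 2.12 CPM. Among the synovial or fibroblast clusters, cluster 14, led by Rgs5 and Htra4, was at 38.1 to 51.0 CPM of Wnt4. The hypertrophic class rests on 646 cells, between 69 and 244 a pup, of which cluster 42 made up 7.43% to 23.6%. Without cluster 42 the class means were 123 CPM for Wnt4, 183 CPM for Wnt5b and 31.7 CPM for Wnt11.

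Wnt5b, a close relative of Wnt5a, was at 180 and 174 CPM in the hypertrophic chondrocytes of the WT pups and at 182, 182 and 144 CPM in those of the Mutant pups. The prehypertrophic class was next, between 61.1 and 79.7 CPM over the 5 pups. Both steps held without overlap: hypertrophic lay above prehypertrophic, and prehypertrophic above pericytes at 29.6 ± 5.2 CPM. From pericytes down, neighbouring classes overlapped. Resting chondrocytes were at 19.0 ± 2.65 CPM, articular chondrocytes at 8.30 ± 1.09 CPM and macrophages at 8.31 ± 4.70 CPM, so that articular chondrocytes did not stand above the background.

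Wnt11 had the same leading class. It was at 22.1 and 35.8 CPM in the hypertrophic chondrocytes of the WT pups and at 34.6, 36.5 and 23.1 CPM in those of the Mutant pups. Each pup was above its own synovial or fibroblast cells (18.1 ± 6.05 CPM), although the ranges overlapped. Articular chondrocytes followed at 15.6 ± 3.31 CPM and macrophages at 11.5 ± 6.82 CPM. Of the 144 macrophage UMIs of Wnt11, 104 were in cluster 43, 60 cells led by Cd74 and H2-Aa. There Wnt11 was at 140 and 202 CPM in the WT pups and at 352 and 163 CPM in Mutant pups 3 and 4, and no UMI was counted in the 3 cells of Mutant pup 5.

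Among the chondrocytes other than the articular ones, these 3 ligands were highest in the clusters with the most Ihh. Hypertrophic cluster 42, with too few cells for this order, went against it for Wnt4, at a mean of 116 CPM (72.5 to 202 CPM over the pups, 103 UMIs in all) with no UMI of Ihh, and held 24.8 CPM of Wnt5b and 10.6 CPM of Wnt11. In articular chondrocytes, with 0.563 CPM of Ihh, mean Wnt11 (15.6 CPM) was above that of cluster 22. Over clusters 19, 17, 22, 7 and 28, where pooled Ihh was at 2.86, 3.71, 12, 84.0 and 498 CPM, mean Wnt4 was at 7.75, 18.9, 21.7, 70.8 and 123 CPM. Mean Wnt5b over the same 5 clusters was at 42.2, 68.5, 70.6, 101 and 183 CPM. Mean Wnt11 was at 7.02, 8.29, 11.2, 19.2 and 31.7 CPM. The steps from cluster 22 to 7 and from 7 to 28 were seen in 5 of 5 pups for each ligand, without overlap for Wnt4 and Wnt5b and with overlap for Wnt11. Between clusters 17 and 22 no step could be told, with 2 of 5 pups higher in cluster 22 for Wnt4 and 4 of 5 for Wnt5b and Wnt11. From cluster 19 to 17 Wnt4 and Wnt5b were higher in 5 of 5 pups and Wnt11 in 3, and Ihh itself was higher in 3 of 5 pups. Clusters 19 and 17 were named resting, cluster 22 prehypertrophic and cluster 28 hypertrophic, while cluster 7 had no name. The Tgfbi-expressing cluster 9, whose pooled Ihh of 5.07 CPM falls between clusters 17 and 22, stood outside this order, with 6.47 CPM of Wnt4 and 26.0 CPM of Wnt5b, while its 11.4 CPM of Wnt11 was near that of cluster 22. The other 7 resting clusters with at least 20 cells in every pup were at 1.37 to 3.68 CPM of Wnt4 and 6.74 to 14.6 CPM of Wnt5b. Median UMIs a cell over these 5 clusters were 11994.5, 15338, 23574.5, 21644.5 and 27915, so depth rose at the other steps but was lower in cluster 7 than in cluster 22.

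**Figure D2:**
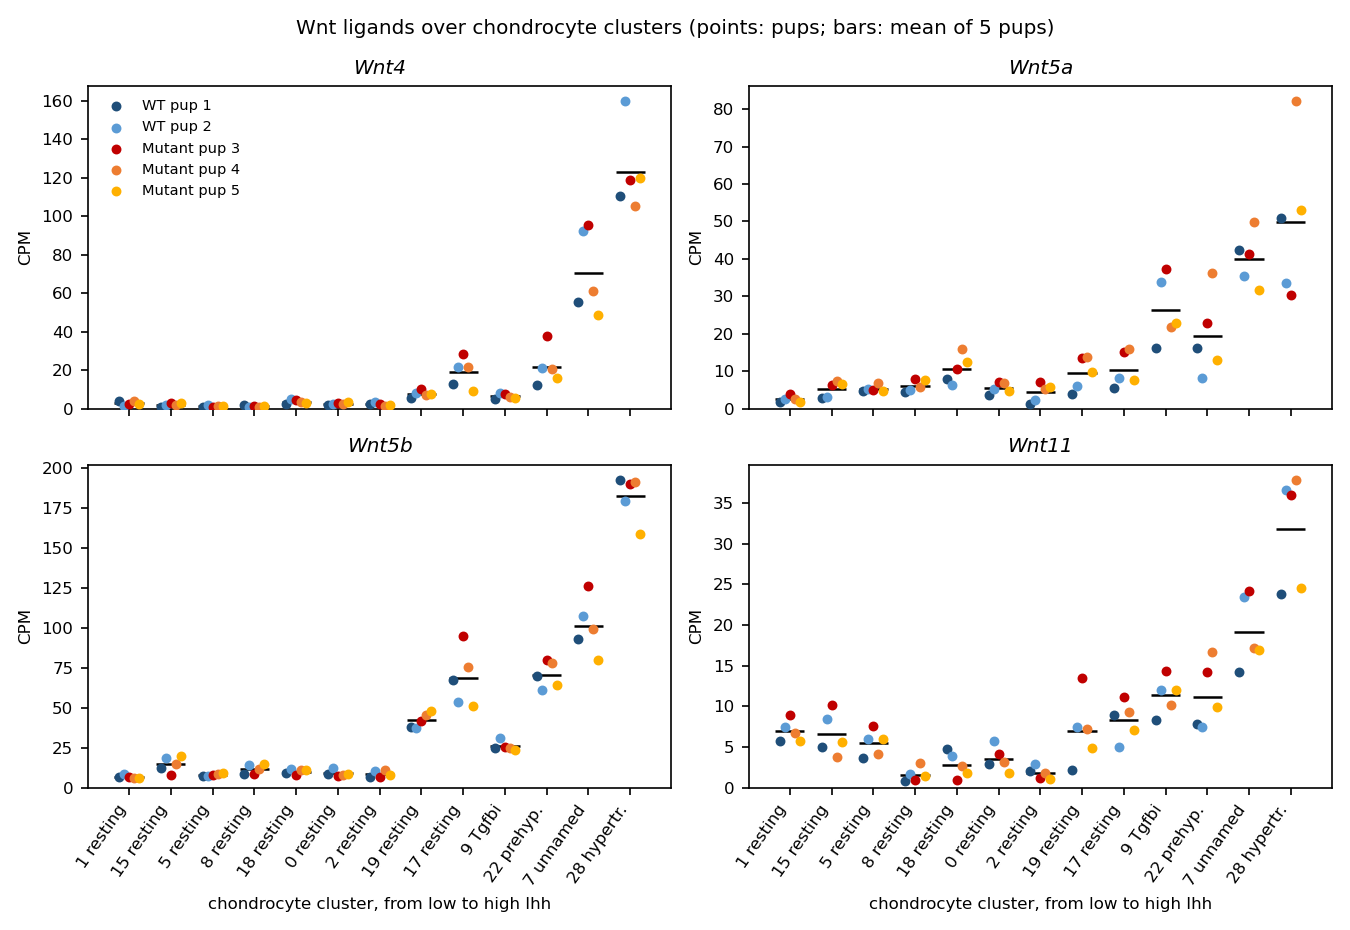
CPM of the 4 ligands in 13 chondrocyte clusters, articular clusters left out, ordered from low to high pooled Ihh, with 1 point per pup and a bar at the mean of 5 pups. Wnt4 and Wnt5b were at most at 3.68 and 14.6 CPM in 7 resting clusters and at 123 and 183 CPM in hypertrophic cluster 28, where Wnt5a was at 49.98 CPM.

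UMIs of several ligands were also counted in the same cells. With each cell thinned to 10000 UMIs, 25.0% of 3509 cells of cluster 7 had a UMI of both Wnt4 and Wnt5b. The product of their shares (38.3% and 57.9%) is 22.2%, and the observed share was above the product in 5 of 5 pups. In cluster 28 the share was 50.4% of 536 cells against a product of 47.9%, above it in 4 of 5 pups. For Wnt4 and Wnt5a the share in cluster 7 was 11.8% against a product of 9.94%, above it in 5 of 5 pups, and in cluster 28 it was 14.6% against 15.6%, above it in 0 of 5 pups. Over the 6 pairs of ligands the share was above the product in at least 4 of 5 pups for 6 pairs in cluster 7 and for 2 pairs in cluster 28. Cells thinned to 1 depth can still differ in type within a cluster, and these shares carry no test.

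Wnt5a had another distribution, with its highest level outside the cartilage columns. In perichondrial cells, the sheath around the cartilage, it was at 56.5 and 103 CPM in the WT pups and at 130, 96.8 and 132 CPM in the Mutant pups. Each pup was above its own hypertrophic chondrocytes (51.6 ± 20.7 CPM), although the ranges overlapped. Synovial or fibroblast cells were at 48.9 ± 10.9 CPM, pericytes at 29.3 ± 11.4 CPM and Tgfbi-expressing chondrocytes at 26.4 ± 8.75 CPM. Resting chondrocytes (6.16 ± 1.71 CPM) and articular chondrocytes (6.41 ± 0.692 CPM) were near the macrophage level of 4.12 ± 2.81 CPM.

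The perichondrial level of Wnt5a rested on 1 of 2 clusters. Cluster 12, led by Igfbp3, Col8a1 and Eln, was at a mean of 152 CPM, and cluster 16, led by heat shock genes, at 35.1 CPM. Comparable means were seen in unnamed cluster 21 (163 CPM), in synovial or fibroblast cluster 26 (147 CPM, led by Mfap5 and Abca8a) and in tendon cluster 30 (109 CPM, led by Chodl and Cilp). The class mean moved with the clustering, to 25.1 CPM at a lower resolution, where hypertrophic chondrocytes led at 52.8 CPM and perichondrial cells had the fifth highest mean, and to 66.9 CPM at a higher one, where perichondrial cells still led. In osteoblast lineage cells, 278 cells led by Ibsp and Dmp1, Wnt5a was at 78.2 ± 36.4 CPM, with as few as 14 cells in a pup.

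The 4 receptors each had an order of classes of their own. Ror2, a receptor tyrosine kinase, was at 35.1 and 41.1 CPM in the prehypertrophic chondrocytes of the WT pups and at 36.1, 30.3 and 40.6 CPM in those of the Mutant pups. Resting chondrocytes were at 29.0 ± 1.29 CPM, lower in all 5 pups but with overlapping ranges. This order depended on the clustering: at the lower resolution, which gave no prehypertrophic class, a class named proliferating led at 36.7 CPM, at the higher resolution the prehypertrophic class was at 25.7 CPM and the resting class at 29.6 CPM, and at the 20% mitochondrial limit they were at 26.3 and 29.5 CPM, with 1 of 5 pups higher in the prehypertrophic class each time. Hypertrophic chondrocytes, where Wnt4, Wnt5b and Wnt11 were highest, held 11.8 ± 1.16 CPM of Ror2, between 10.9 and 13.9 CPM in each pup, below every pup's resting value. Macrophages were at 6.85 ± 2.43 CPM. The dividing resting cluster 15, led by Ube2c, Ccna2 and Prc1, was at a mean of 46.0 CPM. The prehypertrophic class is cluster 22, with cell cycle genes and little Ihh. Unnamed cluster 7, with more Ihh, was at 19.9 to 23.6 CPM of Ror2 over the pups after TMM scaling.

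Fzd8, a Frizzled receptor for Wnt ligands, was highest in the outer tissues. It was at 92.7 and 78.8 CPM in the articular chondrocytes of the WT pups and at 88.2, 70.0 and 52.3 CPM in those of the Mutant pups. Perichondrial cells at 75.3 ± 13.3 CPM could not be placed below them, since only 2 of 5 pups had the higher value in articular chondrocytes, and they are also the leading class of Wnt5a. At the lower resolution perichondrial cells led (82.55 CPM against 59.98 CPM). Tendon or ligament cells followed at 54.6 ± 9.51 CPM and synovial or fibroblast cells at 45.9 ± 10.1 CPM, the latter above resting chondrocytes (28.1 ± 3.76 CPM) without overlap. Hypertrophic (9.18 ± 6.76 CPM) and prehypertrophic chondrocytes (6.70 ± 1.98 CPM) were near the macrophage level of 6.56 ± 0.914 CPM.

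Fzd9, another Frizzled receptor, was highest in the Tgfbi-expressing chondrocytes, 1 cluster of 3227 cells. It was there at 56.0 and 48.2 CPM in the WT pups and at 54.98, 49.4 and 56.8 CPM in the Mutant pups, above every pup's articular chondrocytes (34.4 ± 6.70 CPM). Resting chondrocytes were at 27.5 ± 1.91 CPM. In prehypertrophic and hypertrophic chondrocytes it was at 7.43 ± 1.74 and 9.09 ± 2.08 CPM, against 2.53 ± 0.938 CPM in macrophages. Resting clusters ranged from 10.9 to 41.8 CPM.

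Lgr6 was high in articular and in hypertrophic chondrocytes and low in the prehypertrophic class. In articular chondrocytes it was at 71.8 and 70.1 CPM in the WT pups and at 65.3, 64.4 and 80.1 CPM in the Mutant pups, above every pup's value in the next class. That class was hypertrophic chondrocytes, where Wnt4, Wnt5b and Wnt11 were highest, at 55.4 and 46.8 CPM in the WT pups and 44.6, 49.5 and 33.2 CPM in the Mutant pups, above resting chondrocytes (38.0 ± 6.5 CPM) in 4 of 5 pups. Prehypertrophic chondrocytes were the lowest of the 13 classes at 3.97 ± 1.25 CPM, with macrophages at 6.89 ± 2.76 CPM. Along the clusters of rising Ihh, Lgr6 was at 4.10 CPM in cluster 19, 5.41 in cluster 17, 3.97 in cluster 22, 6.93 in cluster 7 and 48.7 in cluster 28, so that the step lay between clusters 7 and 28. Resting cluster 5, led by Chad and Col2a1, was at 97.0 CPM and tendon cluster 4 at 84.2 CPM. At the higher resolution a class named proliferating led at 108 CPM, above articular chondrocytes at 68.1 CPM.

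Lef1, a DNA-binding partner of β-catenin, was highest in the Tgfbi-expressing chondrocytes. It was there at 112 and 216 CPM in the WT pups and at 184, 106 and 128 CPM in the Mutant pups, above every pup's resting chondrocytes (45.3 ± 9.23 CPM). Resting cluster 19 was at 107 CPM. Hypertrophic chondrocytes were at 6.13 ± 2.09 CPM, near the macrophage level of 9.06 ± 6.63 CPM. In lymphoid cells, where LEF1 is a known factor of early B and T cells, the mean was 266 CPM, but these were 127 cells with a range of 45.8 to 567 CPM over the pups.

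Axin2 rested on few UMIs, and its order of classes was loose. In the Tgfbi-expressing chondrocytes it was at 6.64 and 13.5 CPM in the WT pups and at 17.0, 8.80 and 9.62 CPM in the Mutant pups. Perichondrial cells (10.7 ± 2.23 CPM) and articular chondrocytes (9.52 ± 1.13 CPM) could not be separated from them, nor could granulocytes, which varied widely (9.63 ± 9.08 CPM), and 2 of 5 pups had more Axin2 in the Tgfbi-expressing class than in perichondrial cells. Tendon or ligament cells at 5.85 ± 0.614 CPM lay above resting chondrocytes at 4.22 ± 0.787 CPM without overlap. Prehypertrophic chondrocytes were at 2.13 ± 0.771 CPM, and macrophages at 1.48 ± 1.38 CPM.

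**Figure D3:**
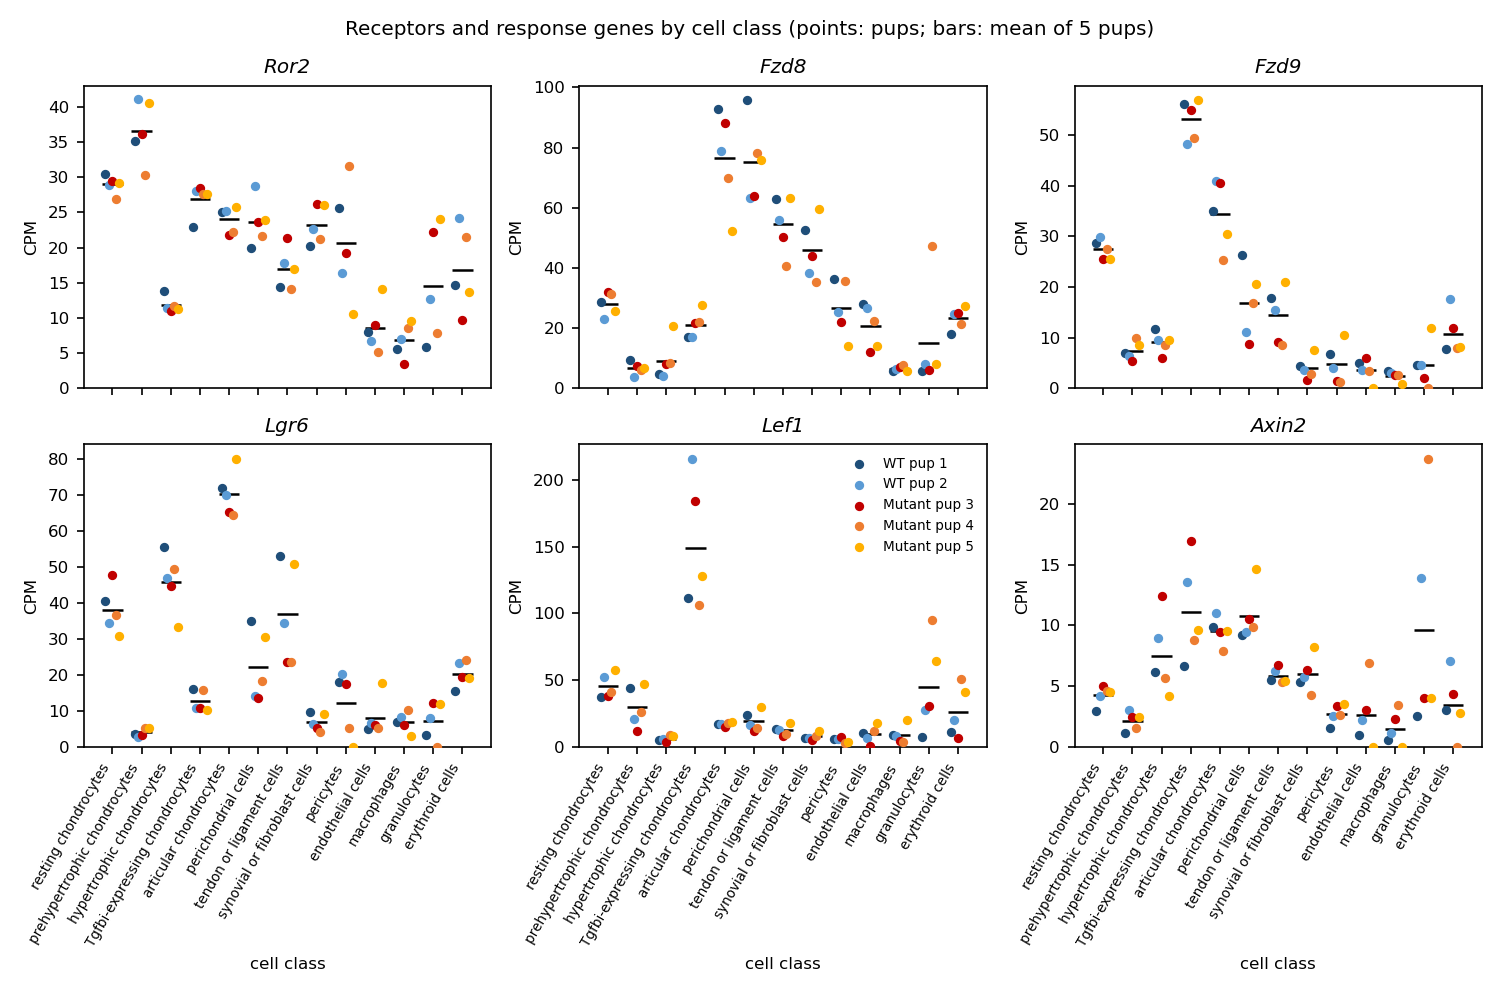
CPM of Ror2, Fzd8, Fzd9, Lgr6, Lef1 and Axin2 in 13 cell classes, with 1 point per pup and a bar at the mean of 5 pups. The hypertrophic class is low for Ror2 (11.8 CPM) and Fzd8 (9.18 CPM) and high for Lgr6 (45.9 CPM), and Lef1 stands out in the Tgfbi-expressing class (149 CPM).

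With every cell thinned to 2000 UMIs, 25.9% of hypertrophic chondrocytes had a UMI of Wnt5b (84.2% unthinned, at a median of 26646 UMIs a cell) against 0.935% of macrophages. For Wnt4 the shares were 17.8% (72.4% unthinned) and 0.340%. For Lef1 25.0% of Tgfbi-expressing chondrocytes (56.0% unthinned) stood against 0.595% of macrophages, and for Axin2 2.54% (7.96% unthinned) against 0.0850%. For Wnt11 they were 5.57% of hypertrophic chondrocytes (41.95% unthinned) and 2.13% of macrophages, but 30.0% of the macrophage cluster 43 described above, so that the macrophage share is no background for Wnt11. In macrophage clusters 27 and 32 it was 0.316% and 1.03%. Over the 13 classes, the class with the highest thinned share was the one with the highest CPM for 9 of the 10 genes, and for 7 of them the second class was the same too. The exception was Fzd8, with 13.6% of perichondrial cells and 13.4% of articular chondrocytes. The median macrophage held 7587.5 UMIs and the median Tgfbi-expressing chondrocyte 7895.

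The genes nearest to each of the 10 in pattern were found by Pearson's r of log2(CPM + 5) over the 13 class means, among 9602 genes with at least 20 CPM in a class. These 13 points share pups and libraries, so the values are descriptions only. For Wnt4 the nearest were Hebp2 (0.98), Dhx32 (0.95) and Ugp2 (0.95), and for Wnt5b Shisa4 (0.94), Pth1r (0.94) and Sp7 (0.92), of which Pth1r and Sp7 were among the markers that named classes. Nearest to Wnt5a were Lgi2 (0.85), Socs1 (0.84) and Gpc3 (0.84), and to Wnt11 Insig2 (0.86), Anxa4 (0.86) and Katnal1 (0.84). For the receptors they were Carm1, Med25 and Igsf3 (Ror2, 0.92 to 0.93), Igsf10, Pkd2 and Mxra8 (Fzd8, 0.95 to 0.97), Slc16a4, Matn4 and Clstn3 (Fzd9, 0.94 to 0.95) and Mir100hg, Gm28153 and Crispld1 (Lgr6, 0.86 to 0.88). Nearest to Lef1 were Alkbh1 (0.91), Slc27a6 (0.90) and Zfp869 (0.88), and to Axin2 Gmds (0.87), Camk4 (0.84) and Hmga2 (0.82). Between the 10 genes themselves the highest r was 0.83, for Wnt4 and Wnt11.

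The remaining genes of the pathway were described from a list of 78 genes, which holds these 10. Of its 19 ligands, 6 reached 20 CPM in a class: besides the 4 above these were Wnt10b, at 39.7 ± 10.5 CPM in hypertrophic chondrocytes, and Wnt9a, at 33.4 ± 2.73 CPM in articular chondrocytes. Another 9, among them Wnt3a and Wnt7b, stayed under 1 CPM in every class. Among the other roles, the gene with the highest level in a chondrocyte class was Wls, which carries Wnt proteins to the cell surface (201 ± 18.9 CPM, articular), Ryk, a Wnt co-receptor (319 ± 23.8 CPM, hypertrophic), and Lgr4, a receptor of R-spondins (107 ± 3.95 CPM, prehypertrophic). Ctnnb1, which encodes β-catenin, was at 1094 ± 55.8 CPM and Prickle1, a gene of planar cell polarity, at 143 ± 12.9 CPM, both in prehypertrophic chondrocytes. Notum, a response gene whose product inactivates Wnt proteins, was at 235 ± 65.6 CPM in the Tgfbi-expressing chondrocytes, the leading class of Lef1 and Axin2.

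The comparison of Mutant with WT asks whether any of these genes differed with the Trpv4 label. UMIs were summed per pup and class and tested with edgeR's quasi-likelihood test, with Benjamini-Hochberg adjustment over all genes tested in the class. The replicates are 5 littermates, and p-values set the difference by label against the spread between pups of the same label. In 13 classes and in all cells together, 114 tests of the 10 genes were possible, and 26 fell out for low counts. None of the 114 passed an adjusted p of 0.05, where 0.00764% of all 170256 tests did. At an unadjusted p under 0.05 there were 10 of 114, against 5.65% of all tests. WT and Mutant values lay apart, without overlap, in 19 of 114 tests, against 22.1% of all tests, and in 2 of 10 tests in all cells, against 22.5%. Nothing particular to the 10 genes is read from these counts. By sign, 70 of 114 changes were higher in Mutant pups, against 48.6% of all tests, with a median log2 fold change of 0.09.

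With DESeq2, 1 of 114 tests passed, Wnt5a in resting chondrocytes, where 0.16% of all its tests did. Without the filter on low counts edgeR called 2 of 140, Wnt5a in perichondrial cells (log2 fold change 0.66, adjusted p = 0.0138) and Wnt11 in prehypertrophic chondrocytes (log2 fold change 0.87, adjusted p = 0.0382), where 0.255% of all tests passed.

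Wnt5a had the most even direction by label. Its levels below are CPM after TMM scaling. In resting chondrocytes it was at 3.76 and 4.84 CPM in the WT pups and at 7.68, 8.03 and 6.62 CPM in the Mutant pups, without overlap. The log2 fold change was 0.79 (SE 0.16, edgeR adjusted p = 0.537, unadjusted p = 0.00122), and DESeq2 gave 0.80 with an adjusted p of 0.00971. Of all genes tested in this class, 26.0% did not overlap. In plain CPM the Mutant mean of Wnt5a was higher in 9 of the 9 resting clusters with at least 20 cells in every pup, in 5 of them without overlap. These clusters come from the same pups, and no share over all genes was counted for them. The resting levels of Wnt5a are near the macrophage background.

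In perichondrial cells, its leading class, Wnt5a was at 54.2 and 102 CPM in the WT pups and at 132, 102 and 132 CPM in the Mutant pups. WT pup 1 stood apart at the low end, while WT pup 2 lay within the Mutant range. The summed level of the 10 perichondrial markers in these cells was lowest in WT pup 1, at 104050 CPM against 117470 to 144710 CPM in the other pups, and that of the 10 resting markers was highest in it, at 17821 CPM against 5455 to 15898 CPM. Their part in the difference was not tested. The log2 fold change was 0.64 (SE 0.28, edgeR adjusted p = 0.831), and it was 0.26 without WT pup 1 and 1.18 without WT pup 2. The pups divided differently between the 2 perichondrial clusters: cluster 16, low in Wnt5a, held 63.0% and 28.5% of the perichondrial cells of the WT pups and 40.1%, 49.1% and 46.7% of those of the Mutant pups. In cluster 12 alone Wnt5a was at 107 and 122 CPM in the WT pups and at 173, 157 and 204 CPM in the Mutant pups, without overlap (log2 fold change 0.63, SE 0.14, edgeR adjusted p = 0.239, 0 of 10993 genes called). In cluster 16 alone the labels overlapped (0.48, SE 0.31, adjusted p = 0.984). In all cells it was at 16.8 and 21.2 CPM in the WT pups and at 34.9, 31.7 and 21.7 CPM in the Mutant pups, with a log2 fold change of 0.63 (SE 0.22, adjusted p = 0.841). A term for the pups whose cells held Xist leaves Mutant pup 5 alone against the WT pups. In that fit the log2 fold change of Wnt5a was 0.19 in all cells and 0.76 in perichondrial cells. The gap between WT pup 2 and Mutant pup 5 in all cells was open only after scaling, since in plain CPM they were at 23.1 and 21.1. The all-cell sums also depend on how many cells of each type a pup gave. Cluster 21, the cluster with the highest mean of Wnt5a among those named here, made up 0.959% and 1.504% of the cells of the WT pups and 3.50%, 2.41% and 1.35% of those of the Mutant pups. Within it Wnt5a was at 144 and 154 CPM in the WT pups and at 153, 160 and 208 CPM in the Mutant pups (log2 fold change 0.21, SE 0.16, edgeR adjusted p = 0.745). Over the 10 classes tested Wnt5a was higher in Mutant pups in 9.

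Perichondrial markers in resting chondrocytes are given here in plain CPM. The summed level of the 10 perichondrial markers in resting chondrocytes was 16594 and 15148 CPM in the WT pups and 23288, 21824 and 14299 CPM in the Mutant pups. Mutant pup 5 had the lowest sum, while its Wnt5a lay above that of both WT pups. The Mutant mean was higher for 9 of 10 markers, and 1 of 10 did not overlap. Of all genes tested in this class, 47.4% were higher in Mutant pups and 26.0% did not overlap, both after TMM scaling. The part of these markers in the differences of Wnt5a and Axin2, which was also higher in perichondrial cells than in resting chondrocytes, was not tested.

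Axin2 in resting chondrocytes, after TMM scaling, was at 2.95 and 3.87 CPM in the WT pups. In the Mutant pups it was at 4.90, 4.86 and 4.56 CPM, again without overlap. The log2 fold change was 0.48 (SE 0.16, edgeR adjusted p = 0.608, unadjusted p = 0.0182). In plain CPM the Mutant mean was higher in 9 of 9 resting clusters, without overlap in 2. These clusters come from the same pups, with no share over all genes beside them. In its leading class, the Tgfbi-expressing chondrocytes, the labels overlapped and the log2 fold change was 0.25 (SE 0.34, adjusted p = 0.999). In all cells it was 0.34 (SE 0.15, adjusted p = 0.841).

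**Figure D4:**
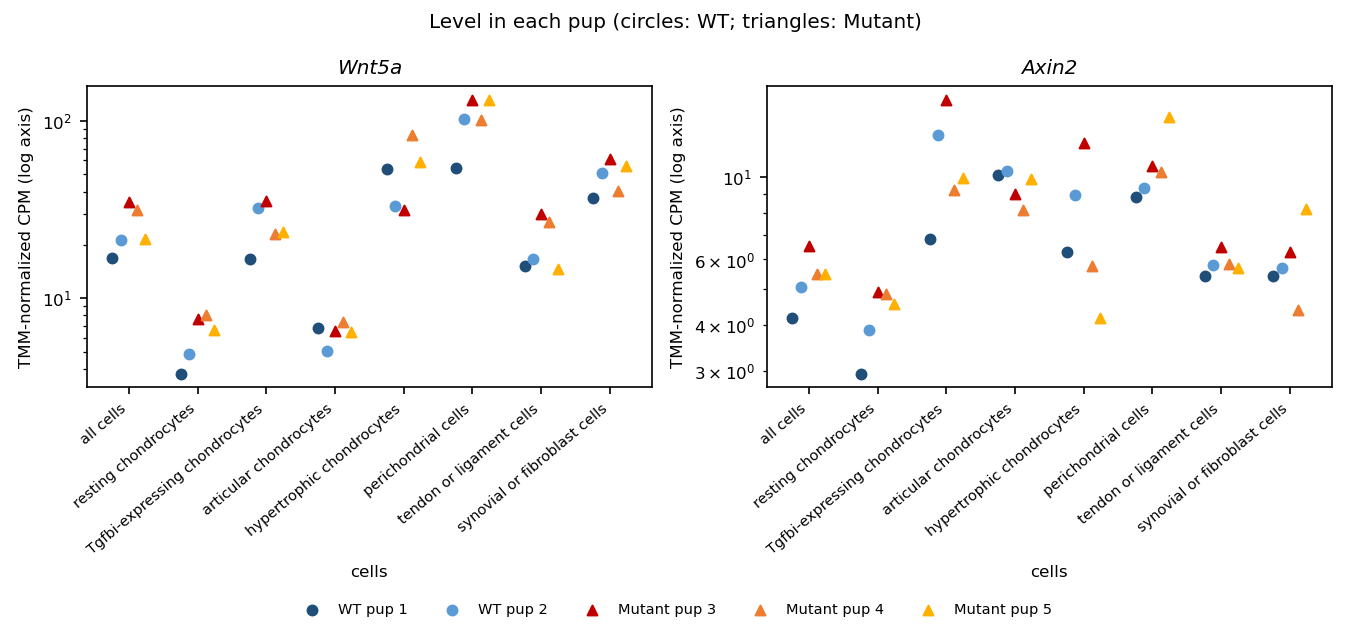
TMM-normalized CPM of Wnt5a and Axin2 in each pup, on a log axis, in all cells and in 7 classes, with circles for WT and triangles for Mutant pups. In resting chondrocytes all 3 Mutant pups lie above both WT pups for both genes (at least 6.62 against at most 4.84 CPM for Wnt5a), while in hypertrophic chondrocytes the labels mix.

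The ligands of the hypertrophic class did not pass the test there. Wnt4 in hypertrophic chondrocytes had a log2 fold change of -0.27 (SE 0.16, adjusted p = 0.998), with WT pup 2 at 162 CPM and the other 4 pups between 108 and 118 CPM. Wnt5b had -0.07 (SE 0.14) and Wnt11 0.10 (SE 0.25) with the same adjusted p. In prehypertrophic chondrocytes Wnt11 was at 7.81 and 7.28 CPM in the WT pups and at 14.3, 17.1 and 9.93 CPM in the Mutant pups, with a log2 fold change of 0.87 (SE 0.25, edgeR adjusted p = 0.295). That is the smallest adjusted p of the 114. Most genes of hypertrophy were also higher in the Mutant pups in this class. Col10a1 passed the test there (log2 fold change 1.40, SE 0.18, edgeR adjusted p = 0.0193), at 16.2 and 15.2 CPM in the WT pups and at 33.4, 47.2 and 39.9 CPM in the Mutant pups. Ihh was at 8.45 and 7.58 CPM in the WT pups and at 21.4, 16.8 and 8.47 CPM in the Mutant pups. The summed level of the 9 hypertrophic markers was 544 and 566 CPM in the WT pups and 632 to 886 CPM in the Mutant pups, with 7 of 9 higher in the Mutant mean, 4 of them without overlap, and Phospho1 at 0 in every pup. Of all genes tested in this class, 48.3% were higher in Mutant pups and 25.9% did not overlap, both after TMM scaling. The part of the hypertrophic markers in the Wnt11 difference was not tested. In this paragraph the CPM of Wnt4 and Wnt11 are after TMM scaling, and those of Col10a1 and Ihh are plain CPM. In all cells the log2 fold changes were 0.03 (SE 0.28, adjusted p = 0.990) for Wnt4, 0.16 (SE 0.12, adjusted p = 0.880) for Wnt5b and 0.16 (SE 0.24, adjusted p = 0.933) for Wnt11. With an Xist term, where Mutant pup 5 alone stands against the WT pups, these turned to -0.36, -0.062 and -0.15.

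Among the receptors, Fzd8 had the widest range by label. In hypertrophic chondrocytes it was at 4.71 and 4.04 CPM in the WT pups and at 7.96, 8.65 and 20.9 CPM in the Mutant pups, with a log2 fold change of 1.42 (SE 0.49, edgeR adjusted p = 0.998). Mutant pup 5 was the highest of these, and the values rest on 9 to 49 UMIs a pup. Perichondrial markers were also higher in the Mutant pups here. Their summed level in hypertrophic chondrocytes was 2368 and 1600 CPM in the WT pups and 3307, 5209 and 3518 CPM in the Mutant pups, with 10 of 10 markers higher in the Mutant mean, 4 of them without overlap, and 0 of 10 at 0 in every pup. Col1a1, 1 of these markers, was at 966 to 1314 CPM in the WT pups and at 2194 to 3810 CPM in the Mutant pups. Among the 10379 genes tested in hypertrophic chondrocytes, 5183 (49.9%) were higher in Mutant pups and 2076 did not overlap, both after TMM scaling. Cluster 42 made up 17 of the 72 hypertrophic cells of Mutant pup 5. Without this cluster Fzd8 was at 5.13 and 2.54 CPM in the WT pups and at 7.33, 6.94 and 13.6 CPM in the Mutant pups (log2 fold change 1.33, SE 0.47, edgeR adjusted p = 1.00), and Col1a1 overlapped between the labels, at 350 to 2563 CPM in the Mutant pups against 693 and 926 CPM. Whether these markers or cluster 42 had a part in the Fzd8 difference was not tested. The Fzd8 levels here and the Col1a1 levels without cluster 42 are after TMM scaling. The first Col1a1 ranges are in plain CPM. In Tgfbi-expressing chondrocytes the log2 fold change of Fzd8 was 0.51 (SE 0.18, adjusted p = 0.999). In endothelial cells it was -0.80 (SE 0.36, adjusted p = 0.987), with the opposite sign, and whether these classes differ was not tested. In its leading class, articular chondrocytes, it was -0.27 (SE 0.19, adjusted p = 0.672), and in all cells 0.05 (SE 0.15, adjusted p = 0.969).

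For Ror2 the log2 fold change was -0.07 (SE 0.15, adjusted p = 0.915) in prehypertrophic chondrocytes and 0.11 (SE 0.09, adjusted p = 0.882) in all cells. For Fzd9 it was 0.07 (SE 0.15, adjusted p = 0.999) in Tgfbi-expressing chondrocytes and -0.04 (SE 0.19, adjusted p = 0.980) in all cells, and for Lgr6 0.01 (SE 0.13, adjusted p = 0.992) in articular chondrocytes and -0.05 (SE 0.18, adjusted p = 0.972) in all cells. These 3 genes had no unadjusted p under 0.05 in any class tested. In resting chondrocytes the log2 fold change of Fzd9 was -0.09 (SE 0.10, edgeR adjusted p = 0.817). In plain CPM, without TMM scaling, its Mutant mean was lower in 7 of the 9 clusters, without overlap in 5. These clusters come from the same pups, and no share over all genes was counted for them. Over the whole class the plain CPM of Fzd9 were 28.7 and 29.9 in the WT pups and 25.6, 27.4 and 25.6 in the Mutant pups. After TMM scaling the labels overlapped. Lef1 had -0.20 (SE 0.29, adjusted p = 0.999) in Tgfbi-expressing chondrocytes and 0.16 (SE 0.29, adjusted p = 0.943) in all cells. Its highest value, 1.89 in granulocytes (SE 0.69, adjusted p = 0.999), came from a class with as few as 29 cells in a pup. In granulocytes Lef1 was at 7.12 and 29.0 CPM in the WT pups and at 33.4, 98.0 and 68.2 CPM in the Mutant pups. Mutant pups 4 and 5, the highest, also had the most cartilage RNA in this class. Col2a1 was at 11017 and 16830 CPM in the WT pups and at 11854, 24372 and 26936 CPM in the Mutant pups. The summed level of the 8 articular markers was 409 and 624 CPM in the WT pups and 1243, 2102 and 2064 CPM in the Mutant pups, with 7 of 8 higher in the Mutant mean and 0 of 8 at 0 in every pup. For the 10 resting markers it was 14560 and 21448 CPM against 14166, 27430 and 32077 CPM, with 4 of 10 higher. Of all genes tested in this class, 48.5% were higher in Mutant pups, after TMM scaling. The part of these markers in the Lef1 difference was not tested. The granulocyte levels of Lef1 are after TMM scaling, and those of Col2a1 are plain CPM.

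**Figure D5:**
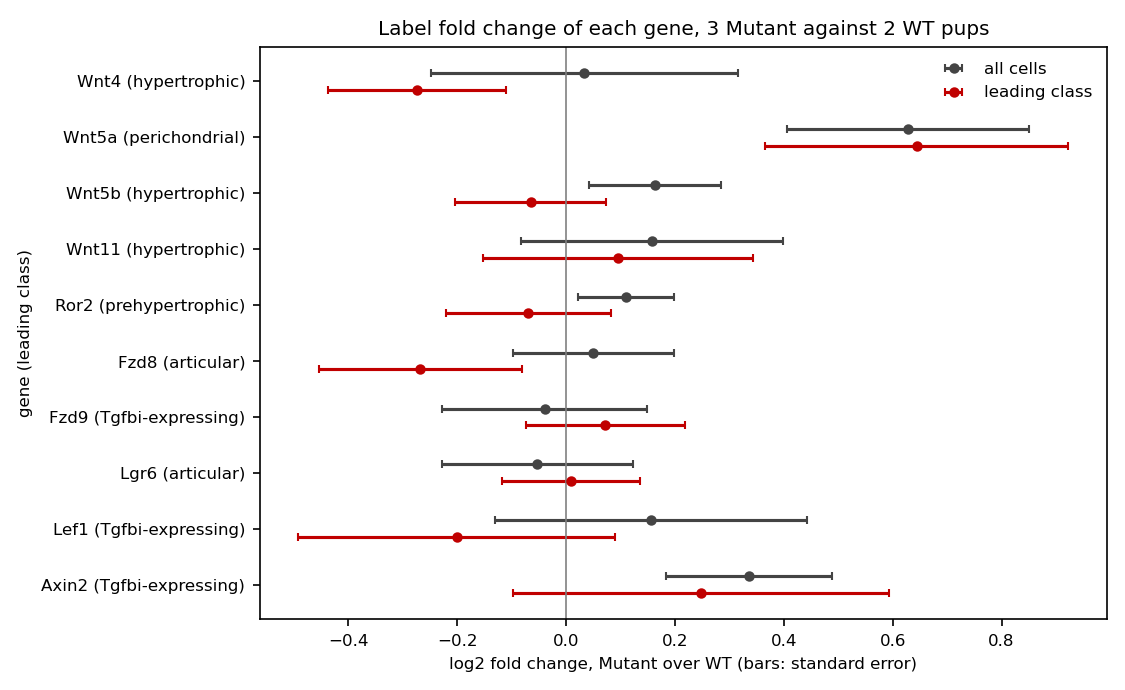
Log2 fold change of Mutant over WT for each gene, in all cells and in its leading class (named in brackets), with bars for the standard error of the edgeR fit. Wnt5a lies furthest to the right in both (0.63 and 0.64), and 0 of the 20 values passed an adjusted p of 0.05.

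Whether the label change differed between classes was tested as an interaction with the pup as a block. Of the 10 genes, 0 differed in hypertrophic against resting chondrocytes, where 0.0397% of 17619 genes did, and 0 in perichondrial cells against resting chondrocytes, where 0.0% of 16707 genes did. For Wnt5a the perichondrial change minus the resting change was -0.12 (SE 0.22, edgeR adjusted p = 0.999). For Fzd8 the hypertrophic change minus the resting change was 1.00 (SE 0.61, adjusted p = 1). Without Mutant pup 3 it was 1.36 and passed (adjusted p = 0.0352), in a fit that then called 115 of 17281 genes.

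In shares of cells thinned to 2000 UMIs, 1 of the 10 genes did not overlap by label in its leading class, against 21.7% of all genes tested in these classes, and nothing is read from this count. The gene was Wnt5a, which had a UMI in 9.57% and 14.3% of the perichondrial cells of the WT pups and in 20.3%, 15.3% and 20.4% of those of the Mutant pups. The difference was 6.76 percentage points (2-sided exact permutation test, p = 0.2), where the smallest p that 2 pups against 3 allow is 0.1. Unthinned, the share was 34.8% over all pups at a median of 6267 UMIs a cell, and WT pup 2 (38.4%) lay above Mutant pups 4 (30.6%) and 5 (37.4%). Macrophages had a UMI of Wnt5a in 0.510% of cells at the thinned depth.

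Over the whole Wnt list, 0 of 707 tests passed with edgeR, 61 had an unadjusted p under 0.05, against 5.65% of all tests, and DESeq2 called 3, against 0.16%. By sign, 466 of 707 were higher in Mutant pups, against 48.6% of all tests. In all cells 56 of the 72 list genes tested were higher, against 46.6% of all genes, with a median log2 fold change of 0.15 against -0.02 over all genes tested. By role in all cells, 11 of 14 ligands, 12 of 15 receptors, 13 of 15 intracellular genes and 10 of 11 response genes were higher, and so were 7 of 11 genes of planar polarity, 5 of 9 of the R-spondin arm and 2 of 2 of secretion. These genes were measured in the same 5 pups, and nothing particular to the list is read from the counts. The genes DESeq2 called were Wnt5a and Rspo3 in resting chondrocytes and Ptk7 in pericytes. The CPM of Rspo3, Notum and Fzd7 by label below are after TMM scaling. Rspo3, an R-spondin, was at 9.35 and 9.44 CPM in the WT pups and at 6.32, 6.52 and 6.27 CPM in the Mutant pups (log2 fold change -0.56, SE 0.10, edgeR adjusted p = 0.499). The pups divided differently between the resting clusters. Of the 6099 and 5979 resting cells of the WT pups, cluster 19 held 499 and 766, and cluster 0 held 735 and 861. Of the 6361, 7036 and 6782 of the Mutant pups, cluster 19 held 268, 180 and 309, and cluster 0 held 1203, 1530 and 1496. The part of this division in the Rspo3 difference was not tested. Notum in all cells was at 22.4 and 25.1 CPM in the WT pups and at 33.1, 31.7 and 42.2 CPM in the Mutant pups (log2 fold change 0.59, SE 0.15, edgeR adjusted p = 0.841). The Tgfbi-expressing class, where Notum was highest, held 446 and 532 of the 15121 and 16561 cells of the WT pups. In the Mutant pups it held 735, 787 and 727 of 19133, 17887 and 13814 cells. The part of these cells in the Notum difference was not tested. Without the filter on low counts edgeR also called Notum in prehypertrophic chondrocytes (log2 fold change 1.10, adjusted p = 0.00272), Ptk7, a planar polarity receptor, in pericytes (1.58, adjusted p = 6.56e-06) and Fzd7, a Frizzled receptor, in hypertrophic chondrocytes (0.87, adjusted p = 0.0218). Those fits called 160 of 23167, 186 of 19343 and 20 of 21702 genes. With the filter the edgeR adjusted p in these classes was 0.409 for Notum, 0.268 for Ptk7 and 0.998 for Fzd7. In plain CPM, Notum was at 10.7 ± 4.84 in prehypertrophic chondrocytes and at 7.40 ± 2.27 in macrophages. The pericytes of Mutant pup 5 were 39 cells. Fzd7 was at 22.5 and 31.9 CPM in the hypertrophic chondrocytes of the WT pups and at 37.5 to 61.5 CPM in those of the Mutant pups, and at 69.1 to 103 CPM in perichondrial cells. The perichondrial markers in hypertrophic chondrocytes and the hypertrophic markers in prehypertrophic chondrocytes, given above for Fzd8 and Wnt11, moved in the same classes as Fzd7 and Notum, and their part was not tested. Without WT pup 1, edgeR called Notum in prehypertrophic chondrocytes (1.78, adjusted p = 0.00138) and Ptk7 in pericytes (2.00, adjusted p = 0.0296), in fits that called 188 of 13020 and 42 of 10664 genes. Without WT pup 2 it called Tcf7l1 in erythroid cells (1.77, adjusted p = 0.0492), where 204 of 8484 genes passed.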

How the data were processed

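UMIs were counted in cells of the proximal tibia and distal femur growth plates of 5 pups, 2 labelled WT and 3 labelled Mutant, 1 BD Rhapsody library each. The authors deposited raw UMI counts per gene and cell, aligned to mm10 per the labels. The version of the pipeline is not given in the sources used here. Each pup's file held between 117746735 and 183322632 UMIs.

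Cells with 200 to 6000 genes and at most 10% mitochondrial UMIs were kept. This left out 364 cells for too many genes, 9 for too few and 1502 for mitochondrial UMIs, some for more than 1 reason. Pearson residuals (theta 100) of 3000 variable genes, without the Wnt list, Xist, Tsix and Y-linked and mitochondrial genes, gave 50 principal components, a graph of 20 neighbours and Leiden clusters at resolution 1.5 (leidenalg 0.10.2, igraph 0.11.9, scikit-learn 1.9.0). Clusters were named from markers of 21 classes, and a name needed at least 3 detected markers. Doublets were scored with Scrublet in scanpy 1.11.5 and kept, and leaving out the top 5% of scores in each pup is an alternative chosen after seeing the data, since the automatic limit left nearly all cells of most pups unmarked and moved with the number of computing threads.

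UMIs were summed per pup and class. Classes with at least 20 cells in every pup were tested with edgeR 4.0.16 (TMM, filterByExpr, robust quasi-likelihood test, R 4.3.3), with DESeq2 1.42.0 as an alternative. The test was tried first on simulated data with known changes. Shares were compared after thinning each cell to 2000 UMIs, with cells below that left out (1 of 5046 perichondrial cells, for example), by exact permutation over the 10 groupings of 5 pups. SDs describe the spread between pups, counting error included. Other alternatives were no filter on low counts, RLE size factors, an Xist term, each pup left out, a 20% mitochondrial limit and resolutions of 0.8 and 2.5. Leaving cluster 42 out of the hypertrophic class and testing each perichondrial cluster alone were added after seeing the data.

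The genes and lists were chosen with earlier results of these data known. Named in the text are the 10 genes, the genes of the Wnt list past the threshold in any class or highest in a chondrocyte class for their role, and the 3 genes nearest in pattern to each of the 10. Genes outside this rule (Rspo3, Notum, Ptk7, Fzd7 and Tcf7l1 by label, Wnt10b, Wnt9a, Wnt3a and Wnt7b by level) were named after their values were seen.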

Additional observations from a re-analysis of the deposited data

How the results depend on the processing

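No paired analysis was possible because the WT pups (1 and 2) and the Mutant pups (3, 4 and 5) share no replicate number. The count of the 10 genes called by label was 0 in edgeR, 2 without the filter on low counts and 1 with DESeq2, and 0 with any pup left out. For the Wnt list it was 0, 5 without the filter, 3 with DESeq2, and 0 to 2 with a pup left out. Among the interactions it was 0 to 1 with a pup left out. Among the shares without overlap it was 1, against 21.7% of all genes tested, 2 unthinned, and 1 to 6 with a pup left out. Fewer pups overlap less often, and no share over all genes was counted for these other settings. Nothing is read from these counts. The Xist term leaves Mutant pup 5 alone against the WT pups. With it the log2 fold change in all cells turned to -0.36 for Wnt4, -0.062 for Wnt5b and -0.15 for Wnt11. In all cells it also turned to -0.0050 for Fzd8, 0.21 for Fzd9 and 0.045 for Lgr6. In prehypertrophic chondrocytes it turned to 0.11 for Ror2, and in hypertrophic chondrocytes to -0.37 for Wnt11. Lgr6 in articular chondrocytes turned to -0.028 at resolution 2.5 and -0.0099 at a 20% mitochondrial limit. With a pup left out, the log2 fold change in all cells ran from -0.28 to 0.44 for Wnt4, -0.13 to 0.53 for Wnt11, -0.18 to 0.32 for Fzd8, -0.19 to 0.14 for Fzd9, -0.32 to 0.28 for Lgr6 and -0.17 to 0.37 for Lef1. In the leading class it ran from -0.50 to 0.048 for Wnt4, -0.12 to 0.030 for Wnt5b, -0.15 to 0.53 for Wnt11, -0.17 to 0.032 for Ror2, -0.075 to 0.24 for Fzd9, -0.11 to 0.10 for Lgr6, -0.56 to 0.29 for Lef1 and -0.13 to 0.79 for Axin2. The sign was kept by Wnt5a in all cells (0.47 to 0.81), Axin2 in all cells (0.21 to 0.49), Wnt5b in all cells (0.10 to 0.26), Ror2 in all cells (0.06 to 0.16), Wnt5a in perichondrial cells (0.26 to 1.18) and Fzd8 in articular chondrocytes (-0.43 to -0.08). In the differences of shares by label with a pup left out, the range in points was -11.4 to 4.01 for Wnt4, -3.06 to 2.28 for Wnt5b, -0.884 to 1.53 for Wnt11, -1.01 to 0.568 for Lgr6, -10.7 to 5.49 for Lef1 and -0.841 to 0.973 for Axin2. The level in the leading class moved by more than 1 SD for Wnt5a (25.1 CPM at resolution 0.8, 66.9 at 2.5), Wnt4 (98.8 CPM at the 20% limit), Ror2 (25.7 CPM at resolution 2.5, 26.3 at the 20% limit), Fzd8 (59.98 CPM at resolution 0.8) and Fzd9 (61.1 CPM at resolution 2.5, 57.1 at the 20% limit). The cause of these changes was not tested. Leaving out the cells that Scrublet marks by its automatic limit was not run, since that limit left nearly all cells of most pups unmarked, and leaving out the top 5% of scores turned no direction. Leaving cluster 42 out of the hypertrophic class, added after seeing the data, turned no direction for Wnt4, Wnt5b or Wnt11 there. Nor did testing cluster 12 or 16 alone for Wnt5a in perichondrial cells. Depth limits Axin2 most, with 3978 UMIs over all cells.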
